A study of Mus musculus with 12 samples.

Results

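Mouse CD8 T cells with a conditional knockout of Trmt61a (cKO) were compared with wild-type (WT) cells at 48 h, 3 libraries each, chosen by their labels. These 6 libraries are part of a series of 12, and the rest are cKO and WT cells at 0 h, 3 of each. All are RNA-seq libraries of total RNA from primary CD8 T cells of the spleen of C57BL/6 mice. The labels give no age, sex, allele or Cre driver, and say neither what the cells received after 0 h nor whether each library is a separate mouse, so the p-values below measure only the spread between these libraries, which may be partly technical.

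Trmt61a encodes the catalytic subunit of the methyltransferase that, with the RNA-binding subunit Trmt6, places N1-methyladenosine (m1A) in the TΨC loop of cytosolic tRNAs, a mark known for its role in tRNA stability and translation. CD8 T cells that meet antigen turn on growth metabolism, among it sterol synthesis, which supplies membrane to dividing cells and is driven by the SREBP2 transcription factor when sterols in the endoplasmic reticulum are low. The series title names the m1A mark, cholesterol synthesis and antitumour immunity as the study's subject.

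The targeted gene was measured first, since it checks the labels. Trmt61a had 42.5, 0.956 and 1.10 CPM in the cKO libraries, against 42.0, 38.2 and 34.8 CPM in the WT libraries. Replicates 2 and 3 of cKO held 2.49 and 2.87 percent of the WT mean, and the library labelled cKO replicate 1 held 111 percent of it, on 1663 counts. Levels are CPM, counts scaled to library size, in the order of replicates 1, 2 and 3, and fold changes are log2 values, cKO over WT, ± their standard error. Over all 3 cKO libraries the log2 difference was -1.36 ± 1.11 (edgeR adjusted p = 0.504), and without that library it was -5.21 ± 1.12 (edgeR adjusted p = 0.00686). Trmt6 was at 106, 95.5 and 98.7 CPM in the cKO libraries, against 102, 90.4 and 109 CPM in the WT libraries, with no call. At 0 h, Trmt61a had 28.1, 0.807 and 1.88 CPM in the cKO libraries, against 27.4, 29.8 and 26.3 CPM in the WT libraries. Both libraries labelled cKO replicate 1 therefore go against their label. The values below are given with all libraries, and the main counts also without the 48 h library labelled cKO replicate 1.

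**Figure D1:**
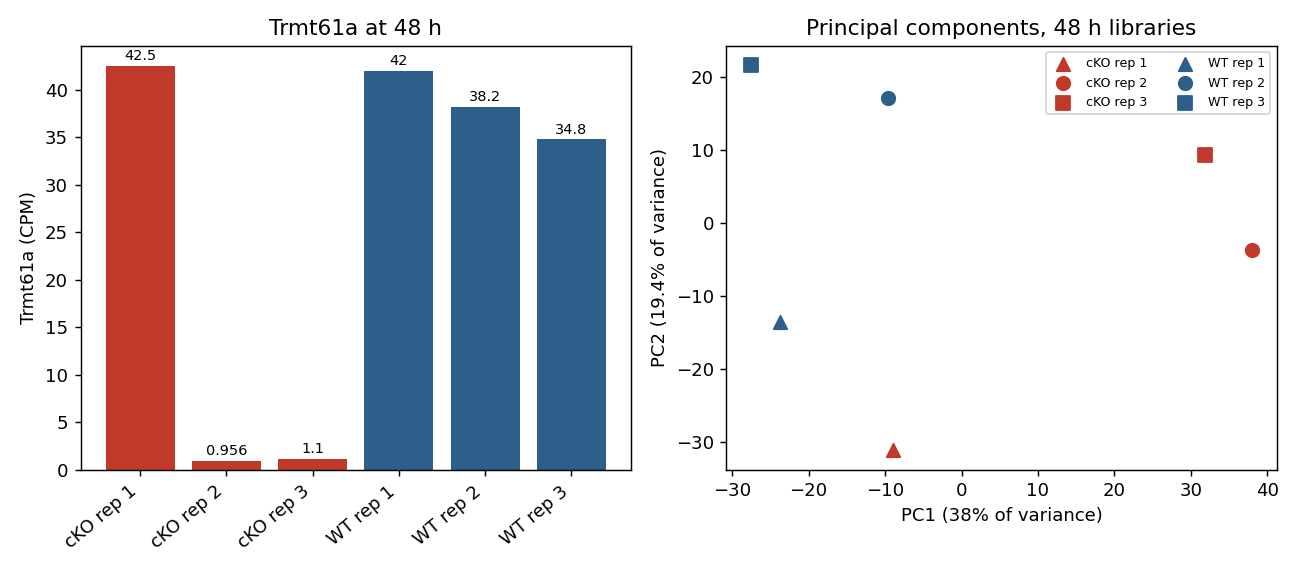
Left, Trmt61a level in CPM in each 48 h library, cKO in red and WT in blue. Right, the 6 libraries on the first 2 principal components of log2 CPM, where cKO replicates 2 and 3 sit at 37.9 and 31.8 on the first component and the library labelled cKO replicate 1 at -8.98, beside WT libraries between -27.5 and -9.64.

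Total counts ran from 34341847 to 40270659 over the 12 libraries, and the median count of a tested gene at 48 h was 1027. On the first principal component of the 48 h libraries, which held 38.0 percent of the variance, cKO replicates 2 and 3 stood apart from the other 4. WT replicate 3 had 0 counts of the Y-linked genes Uty, Kdm5d, Eif2s3y and Ddx3y at 48 h, where each of the other 5 libraries had at least 694 of each. The CD8 T cell label held: Cd8a had 747, 669 and 666 CPM in the cKO libraries, against 681, 688 and 690.1 CPM in the WT libraries, and Cd4 between 15.2 and 18.8 CPM in cKO and between 16.3 and 21.0 CPM in WT. The summed level of 9 CD4 and regulatory T cell markers, which activated CD8 T cells also express in part, was 1330.0 to 1602 CPM in cKO and 1717 to 1926 CPM in WT, with no overlap, and its part in the results was not tested. Summed marker levels in cKO against WT libraries were 122 to 134 against 107 to 141 CPM for 16 B cell genes, 75.2 to 119 against 117 to 123 CPM for 11 NK and innate lymphoid genes, where Eomes, which CD8 T cells also express, held 64.3 to 112 against 110 to 118 CPM, 13 to 17.3 against 11.8 to 18.1 CPM for the myeloid genes and 1.78 to 4.59 against 1.25 to 2.02 CPM for the erythroid and platelet genes. Ncr1 and Klra4 of the NK genes, Fcgr4, Elane, Siglech and Clec9a of the myeloid genes, and Ppbp of the last list had 0 counts in all 6 libraries.

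Of the 12404 genes tested, 384 were higher in cKO than in WT at 48 h and 135 were lower (edgeR quasi-likelihood test, adjusted p under 0.05, called hereafter), which is 3.1 and 1.09 percent of the genes tested. Most differences were small: 26 of the higher genes, 0.21 percent of those tested, and 12 of the lower genes, 0.0967 percent, differed by at least 2-fold, and without the library labelled cKO replicate 1 129 and 47 did, 1.04 and 0.379 percent. The groups did not overlap for 1634 genes with cKO above WT, 13.2 percent, and for 1362 with cKO below WT, 11 percent. Without the library labelled cKO replicate 1, 1201 genes were higher and 1059 lower, 9.43 and 8.32 percent of the 12732 genes tested there, and of the genes called with all libraries 382 of 384 and 134 of 135 were among them. That library lay outside the WT range on the cKO side for 380 of the 384 higher genes and for all 135 lower ones. Its median place, from 0 at the WT mean to 1 at the mean of cKO replicates 2 and 3 on the log2 scale, was 0.724 for the higher genes and 0.518 for the lower ones. These places were not tested, because the library took part in choosing the genes. For the 816 and 925 genes called higher and lower only without it, its median place was 0.174 and 0.107. Those genes were chosen because they lose their call with that library, which favours a place near WT. These places were not tested either.

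WT replicate 3 weighed on the counts as well. Without it at 48 h the counts were 47 higher and 6 lower, and without its 0 h library as well 15 and 1, 0.119 and 0.00791 percent of the genes tested. Leaving out 1 other library at 48 h gave 64 higher and 8 lower without cKO replicate 2, 188 and 39 without cKO replicate 3, 241 and 48 without WT replicate 1, and 258 and 55 without WT replicate 2. Leaving out both libraries of WT replicate 3 and both of those labelled cKO replicate 1 gave 708 higher and 731 lower genes, 5.68 and 5.86 percent. That choice was added after seeing the data. With both libraries labelled cKO replicate 1 removed and all WT libraries kept, 1133 genes were higher and 1110 lower, 8.96 and 8.78 percent. By tool, DESeq2 called 5.85 percent of genes higher and 2.97 percent lower, limma-voom 2.89 and 2.43 percent, and edgeR on the 48 h libraries alone 0.703 and 0.48 percent.

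Among called genes that averaged 5 CPM or more and had no overlap between the groups, the largest fall was that of Ccdc141, which encodes a coiled-coil protein, with 5.47, 1.67 and 2.33 CPM in the cKO libraries, against 16.5, 10.3 and 20.4 CPM in the WT libraries. All 3 cKO libraries were below all 3 WT libraries, with cKO replicate 1 nearest to WT, at -2.31 ± 0.46 (edgeR adjusted p = 0.0159). The next places were held by lipid genes, Scd1 and Fads2, described below. Fut4, a fucosyltransferase, fell by 1.37, Tnip3, an inhibitor of NF-kB signalling, by 1.32, Vcl, the adhesion protein vinculin, by 1.20, Plaur, the urokinase receptor, by 1.16, and Gcat, which acts in threonine breakdown, by 1.14 on the log2 scale (edgeR adjusted p = 0.0486, 0.0119, 0.0293, 0.0131 and 0.0343). Sh2d1a, the SLAM receptor adaptor SAP, and Ptms were called lower whichever single 48 h library was left out, as were Scd1 and Fads2. The log2 fold changes were -0.84 ± 0.13 for Sh2d1a and -0.93 ± 0.15 for Ptms (edgeR adjusted p = 0.00643 and 0.00726).

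Among the genes called higher, Ttc28 had the highest fold change of the well-expressed ones, with 7.26, 13.4 and 12.7 CPM in the cKO libraries, against 4.71, 5.20 and 2.93 CPM in the WT libraries. Its cKO libraries were all above the WT libraries, at 1.38 ± 0.22 on the log2 scale (edgeR adjusted p = 0.00643). Acsbg1, an acyl-CoA synthetase, followed at 1.26 ± 0.27, then Itgae at 1.17 ± 0.23, Mturn at 1.08 ± 0.18 and Zbtb20, a zinc finger repressor, at 1.08 ± 0.22. The smallest adjusted p-values among higher genes included those of S1pr1, Gbp8, an interferon-inducible GTPase, Zfp831, Rab37, Cep97, Tmem71 and Pou2af1, a coactivator of octamer factors. Pou2af1 had 26.0, 33.4 and 28.4 CPM in the cKO libraries, against 16.2, 13.5 and 13.1 CPM in the WT libraries. Its groups did not overlap, and the log2 fold change was 1.03 ± 0.13 (edgeR adjusted p = 0.00204). In all, 44 genes were called higher whichever single 48 h library was left out.

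Of 20 cholesterol synthesis genes tested, 9 were called lower in cKO and none higher, 17 were lower and none higher without the library labelled cKO replicate 1, and the median log2 fold change was -0.63 with all libraries and -0.80 without that one, against 0.003 and 0.006 over all genes tested. The shares of all genes tested called lower were 1.09 percent with all libraries and 8.32 percent without that one. In bulk RNA, fewer cells of a kind and less RNA per cell cannot be told apart. The summed level of the 20 genes was 3239, 2006 and 2223 CPM in the cKO libraries, against 3770, 3679 and 3987 CPM in the WT libraries. The list was chosen with the study's subject and earlier results of these libraries known, so its direction is not independent evidence. The count of calls rests on single libraries, being 0 without WT replicate 3 or without cKO replicate 2, 1 without cKO replicate 3 and 5 without either other WT library. It was 18 without both replicate 1 of cKO and replicate 3 of WT at both times.

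In the early, mevalonate arm of the pathway, Acat2, Hmgcs1, Pmvk, Mvd and Fdps were called lower. Acat2, which condenses acetyl-CoA, had 91.7, 56.4 and 66.0 CPM in the cKO libraries, against 144, 117 and 141 CPM in the WT libraries. Hmgcs1, which makes HMG-CoA, had 507, 295 and 321 CPM in the cKO libraries, against 612, 615 and 679 CPM in the WT libraries. In both genes every cKO library was below every WT library, with replicates 2 and 3 lowest, and the log2 fold changes were -0.91 ± 0.16 and -0.76 ± 0.16 (edgeR adjusted p = 0.011 and 0.0187). Mvd, the mevalonate diphosphate decarboxylase, had 57.3, 30.6 and 39.7 CPM in the cKO libraries, against 73.4, 75.3 and 79.0 CPM in the WT libraries. Together with Pmvk, the kinase before it (-0.69 ± 0.13), and Fdps, which makes farnesyl diphosphate (-0.78 ± 0.16), Mvd was called lower (-0.83 ± 0.16, edgeR adjusted p = 0.0151).

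In the arm from squalene to cholesterol, Fdft1, the squalene synthase, Lss, the lanosterol synthase, Msmo1, a sterol methyl oxidase, and Nsdhl, a sterol dehydrogenase, were called lower. Lss had 174, 87.6 and 102 CPM in the cKO libraries, against 193, 192 and 206 CPM in the WT libraries. The library labelled cKO replicate 1 lay close below WT and the other cKO libraries far below it, at -0.70 ± 0.18 with all libraries (edgeR adjusted p = 0.0429) and -1.05 ± 0.09 without that one (edgeR adjusted p = 4.4e-05). Sqle, the squalene epoxidase, had 199, 119 and 137 CPM in the cKO libraries, against 227, 216 and 232 CPM in the WT libraries and was called only without the library labelled cKO replicate 1, at -0.81 ± 0.20 (edgeR adjusted p = 0.0131), and so were Cyp51, Hsd17b7, Ebp, Sc5d and Dhcr7. Hsd17b7, a sterol reductase of the same arm, had 63.9, 41.8 and 38.8 CPM in the cKO libraries, against 63.8, 67.2 and 69.0 CPM in the WT libraries. Here the library labelled cKO replicate 1 was at the low end of the WT range and the other cKO libraries were far below it.

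**Figure D2:**
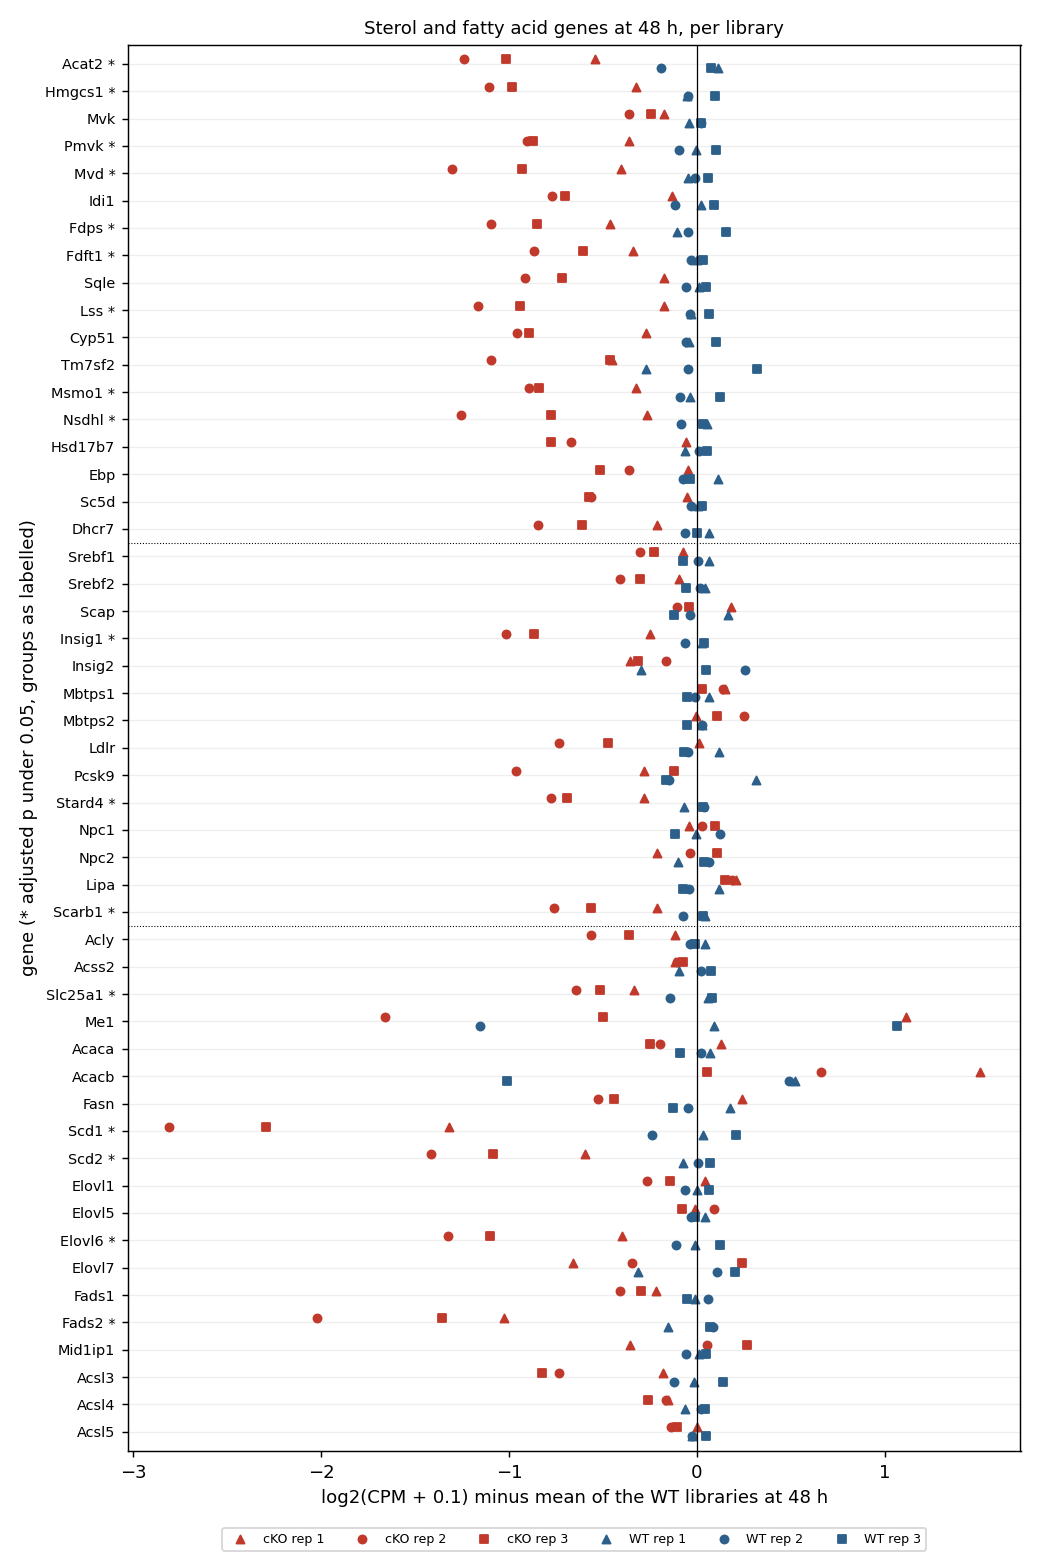
Level of tested genes of 3 lists in each 48 h library, as log2(CPM + 0.1) minus the mean of the WT libraries, with cholesterol synthesis at the top, SREBP control below it and fatty acid synthesis at the bottom. For the cholesterol genes plotted, cKO replicates 2 and 3 lie left of the WT libraries, and the library labelled cKO replicate 1 lies between them and WT or at WT.

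Regulators and uptake genes of the same pathway had fewer calls, with 3 of 14 called lower and none higher, and 5 lower without the library labelled cKO replicate 1. The shares lower over all genes tested were 1.09 and 8.32 percent. Insig1, the sterol-induced retention protein that is itself an SREBP target, had 218, 128 and 142 CPM in the cKO libraries, against 264, 248 and 266 CPM in the WT libraries, at -0.67 ± 0.15 (edgeR adjusted p = 0.0293). The other members called lower were Stard4, a sterol transfer protein (-0.57 ± 0.14), and Scarb1, a lipoprotein receptor (-0.49 ± 0.12). Srebf2, which encodes SREBP2, had 453, 364 and 393 CPM in the cKO libraries, against 498, 489 and 465 CPM in the WT libraries. Its groups did not overlap, and it was called without the library labelled cKO replicate 1 (-0.35 ± 0.09, edgeR adjusted p = 0.0215) and not with it (edgeR adjusted p = 0.135). Among 10 tested genes of sterol export and storage, Mylip, the ligase that targets the LDL receptor, was called higher (0.73 ± 0.18). Soat2, a sterol esterifying enzyme, had 6.72, 39.5 and 38.4 CPM in the cKO libraries, against 8.05, 13.4 and 9.12 CPM in the WT libraries, with cKO replicates 2 and 3 far above the other 4 libraries. Soat2 was not called with all libraries (1.47 ± 0.51, edgeR adjusted p = 0.114). It was called higher without the library labelled cKO replicate 1 (1.94, edgeR adjusted p = 0.00192).

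Promoters of 3 of the cholesterol synthesis genes are shown as a description. SREBP is known to act with the CCAAT-binding factor NF-Y at sterol genes, and the part of either in these results was not tested. RefSeq windows of the 250 bases before the start (GRCm38.p6) were given for 15 of the 20 genes. The letters CCAAT, on either strand, occur in 14 of these 15 windows, all but Acat2, and in 41 percent of the windows of the 9941 tested genes that have one. The letters TCACNCCA, on either strand, occur in 2 of the 15, Hmgcs1 and Msmo1, and in 3.97 percent of the tested genes' windows. In the 21 windows of the glycolysis list CCAAT occurs in 7 and TCACNCCA in 4. Among all genes called lower CCAAT occurs in 48.2 percent of windows and TCACNCCA in 5.45 percent. Among those called higher the shares are 36.1 and 4.26 percent. A match is a description of the letters and not a binding site. Capitals mark both motifs in the windows of Hmgcs1 (chr13:119690101-119690350, plus strand), Msmo1 (chr8:64733579-64733828, minus strand) and Mvd (chr8:122443423-122443672, minus strand), each written 5′ to 3′ on the gene's strand.
Hmgcs1: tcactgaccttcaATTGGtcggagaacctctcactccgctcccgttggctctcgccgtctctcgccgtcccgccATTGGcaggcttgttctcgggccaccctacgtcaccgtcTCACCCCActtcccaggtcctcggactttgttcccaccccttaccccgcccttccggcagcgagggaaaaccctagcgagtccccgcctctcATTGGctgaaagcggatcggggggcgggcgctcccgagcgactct
Msmo1: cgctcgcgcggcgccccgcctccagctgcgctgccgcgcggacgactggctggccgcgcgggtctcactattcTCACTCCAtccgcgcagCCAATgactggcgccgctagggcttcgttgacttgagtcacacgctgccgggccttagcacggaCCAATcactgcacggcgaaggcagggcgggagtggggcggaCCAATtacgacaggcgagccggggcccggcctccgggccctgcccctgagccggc
Mvd: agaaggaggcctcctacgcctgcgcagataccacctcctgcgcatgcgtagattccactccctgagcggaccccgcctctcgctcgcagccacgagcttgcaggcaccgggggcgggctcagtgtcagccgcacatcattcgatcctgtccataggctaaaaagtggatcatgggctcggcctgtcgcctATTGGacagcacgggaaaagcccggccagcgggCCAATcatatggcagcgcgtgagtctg
The Hmgcs1 and Msmo1 windows hold 3 CCAAT matches and 1 TCACNCCA match each, and that of Mvd holds 2 CCAAT matches and none of the other motif. On the opposite strand CCAAT reads ATTGG. Bases just after the start matched a GENCODE transcript of the gene for Msmo1 and Mvd but not for Hmgcs1, whose start is less certain.

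Of 19 fatty acid synthesis and acetyl-CoA supply genes, 5 were called lower and none higher, against 9 lower without the library labelled cKO replicate 1, 2 without WT replicate 3, and 3 without either cKO replicate 2 or cKO replicate 3. The share lower over all genes tested was 1.09 percent, and 8.32 percent without the library labelled cKO replicate 1. Scd1, which desaturates stearoyl-CoA, had 39.2, 13.9 and 19.9 CPM in the cKO libraries, against 100.2, 83.2 and 113 CPM in the WT libraries. It was the called gene with the lowest fold change after Ccdc141 at this level of expression, -2.02 ± 0.29 (edgeR adjusted p = 0.00405), and every cKO library was far below every WT library. Scd2, another desaturase, had 838, 475 and 597 CPM in the cKO libraries, against 1204, 1271 and 1328 CPM in the WT libraries. Its cKO libraries were all below the WT libraries, at -0.99 ± 0.17. Fads2, which desaturates polyunsaturated fatty acids, fell by 1.42 and Elovl6, which elongates saturated ones, by 0.89 on the log2 scale, and Slc25a1, the mitochondrial citrate carrier, by 0.50 (edgeR adjusted p = 0.00643, 0.0139 and 0.0279). Fasn, the fatty acid synthase, had 1149, 677 and 716 CPM in the cKO libraries, against 1101, 943 and 890.3 CPM in the WT libraries. Its groups overlapped because the library labelled cKO replicate 1 was the highest of all 6, and it was called only without that library (-0.49 ± 0.10, edgeR adjusted p = 0.00548).

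Of 22 glycolysis and lactate export genes tested, 9 were called lower and none higher, and the other 13 did not pass the test. The number lower was 12 without the library labelled cKO replicate 1, 0 without WT replicate 3, 1 without cKO replicate 2, and 4 and 5 without WT replicates 1 and 2. Of all genes tested 1.09 percent were lower with all libraries, and 8.32 percent without the library labelled cKO replicate 1. Ldha, lactate dehydrogenase A, had 2661, 2128 and 2612 CPM in the cKO libraries, against 3306, 3261 and 3429 CPM in the WT libraries. Tpi1, triose phosphate isomerase, had 934, 718 and 969.8 CPM in the cKO libraries, against 1221, 1251 and 1209 CPM in the WT libraries. In both genes all 3 cKO libraries were below the WT libraries, cKO replicate 2 being the lowest, at -0.43 ± 0.08 and -0.49 ± 0.09 (edgeR adjusted p = 0.013 and 0.0126). Slc16a3, the lactate exporter, had 82.1, 64.5 and 126 CPM in the cKO libraries, against 126, 187 and 156 CPM in the WT libraries, where cKO replicate 3 at 126.2 lay just below WT replicate 1 at 126.4 CPM, at -0.79 ± 0.19. The other members called were Gpi1, Aldoa, Pgk1, Pgam1, Eno1 and Pkm, with log2 fold changes between -0.46 for Eno1 and -0.30 for Gpi1. In all of the 9 but Pgam1, the library labelled cKO replicate 1 lay nearer to the other cKO libraries than to the WT mean. That library took part in choosing the 9 genes, so its place was not tested. Several of these genes have processed pseudogenes with near-identical sequence, which makes their counts less certain. In the pentose phosphate pathway, Pgd, which yields NADPH, was the 1 member of 9 called lower, at -0.64 ± 0.15, and none was higher, against 5 lower without the library labelled cKO replicate 1. Bsg, the chaperone of lactate exporters, was lower at -0.46 ± 0.08.

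Of 18 cytotoxic effector genes 1 was higher and 1 lower, 5.56 percent each, and of 22 cytokines and chemokines 1 and 1, 4.55 percent each, against 3.1 and 1.09 percent of all genes tested. With the library labelled cKO replicate 1 left out the counts were 1 and 1 in the cytotoxic list and 4 and 2 in the cytokine list. The shares of all genes tested were then 9.43 and 8.32 percent. Gzmb, the protease granzyme B, had 2616, 1808 and 2461 CPM in the cKO libraries, against 3423, 4156 and 4289 CPM in the WT libraries. Ifng, the cytokine interferon gamma, had 238, 124 and 188 CPM in the cKO libraries, against 329.7, 361 and 448 CPM in the WT libraries. Every cKO library was below every WT library for both, at -0.79 ± 0.15 and -1.05 ± 0.24 (edgeR adjusted p = 0.013 and 0.0275). Klrd1, an NK receptor chain, was higher at 0.61 ± 0.14. Xcl1, a chemokine that draws cross-presenting dendritic cells, had 185, 233 and 207 CPM in the cKO libraries, against 117, 104 and 114 CPM in the WT libraries. It was the 1 cytokine or chemokine called higher and stood well above WT in all 3 cKO libraries (0.90 ± 0.12, edgeR adjusted p = 0.00339), with Ifng the 1 called lower.

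Among 15 inhibitory receptors and ligands 4 were higher and 2 lower, with or without the library labelled cKO replicate 1, and none either way without WT replicate 3 or without cKO replicate 2. Without cKO replicate 3 or without WT replicate 1, 1 was higher and none lower, and without WT replicate 2, 3 and none. The shares with all libraries were 26.7 and 13.3 percent, against 3.1 and 1.09 percent of all genes tested. Without the library labelled cKO replicate 1, 9.43 and 8.32 percent of all were called. Ctla4, which competes with CD28 for its ligands, had 244, 213 and 261 CPM in the cKO libraries, against 399.8, 459.6 and 483 CPM in the WT libraries. Lag3, a receptor for MHC class II, had 60.8, 54.6 and 63.2 CPM in the cKO libraries, against 94.3, 109 and 109.7 CPM in the WT libraries. For both the cKO libraries clustered below the WT libraries, at -0.90 ± 0.24 and -0.81 ± 0.21 (edgeR adjusted p = 0.0472 and 0.0435). Both calls ended with the length offsets described below (edgeR adjusted p = 0.0663 for Ctla4 and 0.0646 for Lag3). Cd5, a damper of T cell receptor signalling, had 298, 344 and 304 CPM in the cKO libraries, against 249, 248 and 219.9 CPM in the WT libraries, above WT in all 3 libraries at 0.40 ± 0.07. Pdcd1lg2 and Cd274, the ligands of PD-1, and Vsir, an inhibitory ligand, were the other members higher, at 0.71 ± 0.19, 0.52 ± 0.13 and 0.33 ± 0.09.

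Of 34 naive, memory and homing genes 9 were called higher and 1 lower, with 24 fold changes above and 10 below 0. The number higher was 14 without the library labelled cKO replicate 1, 3 without WT replicate 3, 4 without cKO replicate 2 and 6 without WT replicate 2. Over all genes tested 3.1 percent were higher and 1.09 percent lower, with 6254 fold changes above and 6085 below 0. Without the library labelled cKO replicate 1, 9.43 percent of all were higher. S1pr1, the receptor by which T cells leave lymphoid organs, had 50.1, 56.6 and 50.6 CPM in the cKO libraries, against 33.5, 29.8 and 25.7 CPM in the WT libraries. Klf2, the factor that drives S1pr1, had 32.9, 35.7 and 34.5 CPM in the cKO libraries, against 23.3, 22.8 and 18.8 CPM in the WT libraries. In both the 3 cKO libraries, the one labelled cKO replicate 1 included, stood above the 3 WT libraries, at 0.82 ± 0.09 and 0.67 ± 0.15 (edgeR adjusted p = 0.00204 and 0.0275). Integrins of mucosal homing followed: Itgae, the αE chain CD103, had 23.4, 25.8 and 15.9 CPM in the cKO libraries, against 10.99, 11.1 and 6.98 CPM in the WT libraries. Itga4 had 139, 161 and 140.2 CPM in the cKO libraries, against 96.9, 94.2 and 86.2 CPM in the WT libraries, and with its partner Itgb7 it was called higher, at 0.67 ± 0.09 and 0.56 ± 0.10. Klf3 (0.67 ± 0.09), the chemokine receptor Ccr9 (0.96 ± 0.18), the complement regulator Cd55 (0.79 ± 0.17) and Igfbp4 (0.64 ± 0.17) were the other members higher, and Satb1, a chromatin organiser, the 1 lower (-0.28 ± 0.07). Igfbp4 differed from the others in that its library labelled cKO replicate 1 lay near WT, with 25.2, 43.8 and 40.5 CPM in the cKO libraries, against 24.0, 23.3 and 22.6 CPM in the WT libraries.

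**Figure D3:**
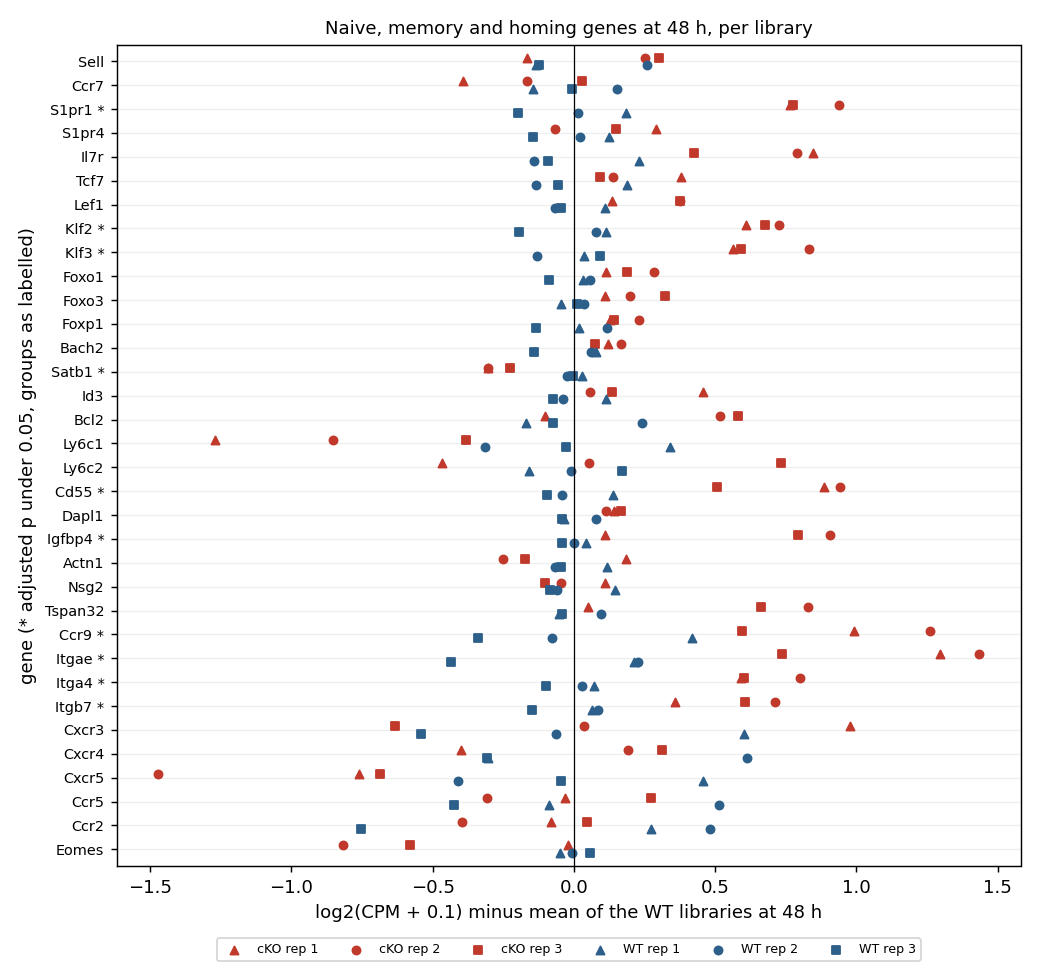
Level of each of 34 naive, memory and homing genes in each 48 h library, as log2(CPM + 0.1) minus the mean of the WT libraries. For S1pr1, Klf2, Klf3, Cd55, Ccr9, Itgae, Itga4 and Itgb7 all 3 cKO libraries lie right of all 3 WT libraries.

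Of 23 genes of interleukin and related cytokine receptors 7 were higher and 1 lower, and 10 and 1 without the library labelled cKO replicate 1. None was called without WT replicate 3, 1 was higher without cKO replicate 2, and 3 were without cKO replicate 3 or WT replicate 2. The shares of all genes tested were 3.1 percent higher and 1.09 percent lower. Without the library labelled cKO replicate 1 they were 9.43 and 8.32 percent. Il27ra, the specific chain of the interleukin 27 receptor, had 98.6, 122 and 121 CPM in the cKO libraries, against 80.5, 84.2 and 76.6 CPM in the WT libraries, at 0.50 ± 0.09 (edgeR adjusted p = 0.0083). The others higher were Il2rg, Il6ra, Il6st, Il17ra, Il18r1 and the TGF-beta receptor gene Tgfbr2, and Il2rb, the shared chain of the interleukin 2 and 15 receptors, was lower with 809, 583 and 698 CPM in the cKO libraries, against 922, 920.4 and 909 CPM in the WT libraries. Dgka and Pag1, which damp signals from the T cell receptor, and the Ras regulator Rasal3 were the 3 of 29 dampers called higher, at 0.44 ± 0.06, 0.45 ± 0.08 and 0.32 ± 0.07, and none was lower. The counts were 6 higher and 2 lower without the library labelled cKO replicate 1.

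Of 56 chromatin modifier genes 11 were called higher and 1 lower, with 41 fold changes above and 15 below 0. The number higher was 17 without the library labelled cKO replicate 1, 1 without WT replicate 3, 2 without cKO replicate 2 and 7 without cKO replicate 3. Over all genes tested 3.1 percent were higher and 1.09 percent lower, with 6254 fold changes above and 6085 below 0. Without the library labelled cKO replicate 1, 9.43 percent of all were higher. Kmt2a, an H3K4 methyltransferase, had 346, 396 and 321 CPM in the cKO libraries, against 234, 250.4 and 191 CPM in the WT libraries. Ezh1, a Polycomb methyltransferase, had 37.3, 39.4 and 40.2 CPM in the cKO libraries, against 28.6, 28.6 and 25.1 CPM in the WT libraries. Their cKO libraries were above all WT libraries, at 0.65 ± 0.12 and 0.51 ± 0.07 (edgeR adjusted p = 0.0119 and 0.00378). Kmt2c, Kmt2d, Setd2, Ash1l, Arid1b, Smarca2, Chd3, Chd6 and Crebbp were the others higher and Chd7 the 1 lower. The number higher was 3 when levels were corrected for transcript length, as described next.

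Differences between the genotypes varied with transcript length. Longest transcripts in a GENCODE annotation of mouse (vM21) had a median of 4658 bases for genes called higher, 2300 bases for genes called lower and 3351 bases for all tested genes. The median log2 fold change was -0.09 in the shortest of 10 equal groups of genes and 0.139 in the longest, and the share called higher was 1.07 and 8.51 percent in these groups. Median deviations from WT in the longest group were 0.114, 0.175 and 0.12 in the cKO libraries, against 0.009, 0.051 and -0.064 in the WT libraries, so the library labelled cKO replicate 1 shared this gradient. With an offset for length in each library, chosen after seeing the data, 243 genes were higher and 114 lower, 1.96 and 0.919 percent, of which 224 and 84 were called without it. The part of length in these results was not tested. With the offset, genes called lower numbered 9 in the cholesterol list, 4 in the fatty acid list and 7 in the glycolysis list. Genes called higher numbered 8 in the homing list, 3 in the interleukin receptor list, 3 in the chromatin list and 2 in the inhibitory receptor list, which had 0 lower. The median log2 fold change of the chromatin list was 0.174 without the offset and 0.047 with it.

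**Figure D4:**
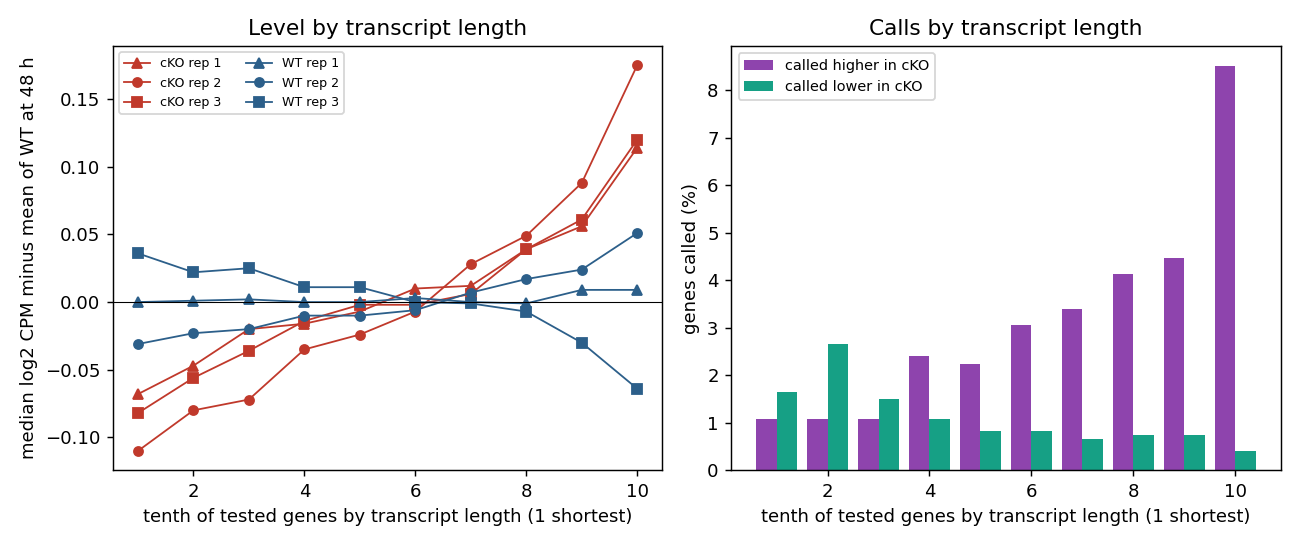
Left, median log2(CPM + 0.1) minus the WT mean in each 48 h library over 10 equal groups of genes by transcript length. Right, percent of genes called higher and lower in cKO in the same groups. All 3 cKO libraries rise with length, and the percent called higher goes with it to 8.51 in the longest group.

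Amino acid supply genes set cKO replicates 2 and 3 apart from the library labelled cKO replicate 1. Slc7a3, a cationic amino acid transporter, had 2.86, 60.3 and 60.2 CPM in the cKO libraries, against 7.16, 13.6 and 8.34 CPM in the WT libraries. Asns, the asparagine synthetase, had 21.3, 221 and 206 CPM in the cKO libraries, against 37.5, 65.4 and 57.8 CPM in the WT libraries. In both, the library labelled cKO replicate 1 was the lowest of the 6 and replicates 2 and 3 were the highest, and neither was called with all libraries (edgeR adjusted p = 0.107 and 0.133). Without that library the log2 fold changes were 2.64 ± 0.33 and 2.00 ± 0.23 (edgeR adjusted p = 0.000391 and 0.000184). WT replicate 1 was the lowest WT library for both genes. Of 14 amino acid transporters tested, 1 was higher with all libraries, Slc43a2, and 11 without the library labelled cKO replicate 1. In the serine and one-carbon list 8 of 14 were higher and 2 lower without it, and none either way with it. The shares of all genes tested were 9.43 percent higher and 8.32 percent lower without it, and 3.1 and 1.09 percent with it.

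Genes of the ATF4 pathway, the transcriptional arm of the integrated stress response, had the same kind of split. Of 22 tested, none was called with all libraries and 11 were higher without the library labelled cKO replicate 1, where 9.43 percent of all genes tested were. Trib3, a pseudokinase that damps ATF4, had 10.5, 114 and 125 CPM in the cKO libraries, against 16.8, 40.6 and 29.4 CPM in the WT libraries. Cth, which makes cysteine, had 6.29, 55.4 and 57.6 CPM in the cKO libraries, against 9.12, 13.1 and 10.3 CPM in the WT libraries. Ddit3, the stress factor CHOP, had 8.72, 47.6 and 48.1 CPM in the cKO libraries, against 10.4, 17.5 and 15.6 CPM in the WT libraries. Each was above all WT libraries in cKO replicates 2 and 3 and below all of them in the library labelled cKO replicate 1, with log2 fold changes without that library of 2.05 ± 0.31, 2.39 ± 0.25 and 1.73 ± 0.19 (edgeR adjusted p = 0.000959, 0.000123 and 0.00016). Atf4 itself had 299.7, 583 and 609 CPM in the cKO libraries, against 369.5, 415 and 455 CPM in the WT libraries. WT replicate 1 was the lowest WT library for each of Trib3, Cth, Ddit3 and Atf4. The summed level of the list was 953.9, 1743 and 1935 CPM in the cKO libraries, against 1193, 1509 and 1443 CPM in the WT libraries. Whether replicate 1 of both genotypes shared a shift was not tested.

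**Figure D5:**
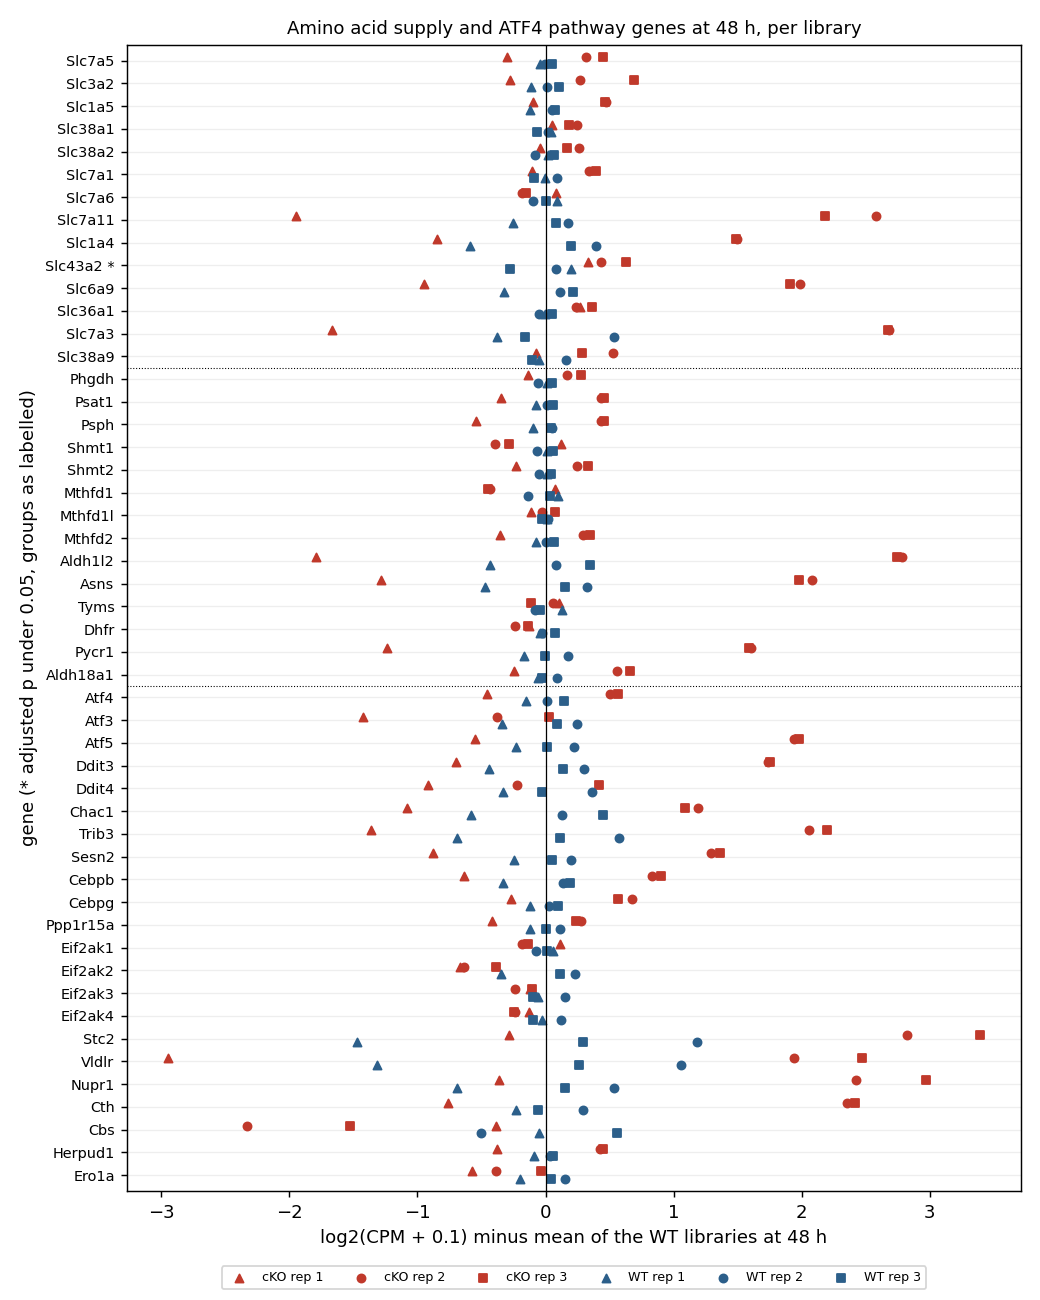
Level of each tested gene of 3 lists in each 48 h library, as log2(CPM + 0.1) minus the mean of the WT libraries: amino acid transporters at the top, serine, one-carbon and asparagine synthesis below, ATF4 pathway genes at the bottom. Slc7a3, Asns, Trib3 and Cth lie far right in cKO replicates 2 and 3 and left of all WT libraries in the library labelled cKO replicate 1.

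Growth genes of other kinds were called mainly without the library labelled cKO replicate 1, and calls rose without it over all genes as well. Of all genes tested 9.43 percent were higher and 8.32 percent lower without it, against 3.1 and 1.09 percent with it. Of 42 genes of ribosome biogenesis or MYC control 1 was lower with all libraries, Ldha, which also belongs to glycolysis, and 25 without the library labelled cKO replicate 1. With and without that library the counts lower were 1, Psmd8, and 19 of 31 proteasome genes, 1, Pdia6, and 18 of 28 chaperones, 0 and 9 of 21 citrate cycle genes, and 2, Uqcrfs1 and Cox8a, and 15 of 34 respiratory chain genes. Ncl, the nucleolar protein nucleolin, had 4417, 3340.3 and 3522 CPM in the cKO libraries, against 4405, 4112 and 4586 CPM in the WT libraries, which shows the pattern, as the library labelled cKO replicate 1 was within the WT range. Ribosomal protein genes showed no call of 79 with all libraries and 6 higher and 1 lower without that one. In the cell cycle lists 0 of 50 S phase genes and 1 of 46 G2/M genes, Pttg1, were called lower with all libraries, and 7 of each list without that one. Of 50 genes of other tRNA modifications none was called with all libraries and 2 were higher and 6 lower without that one, and of 23 cytosolic aminoacyl-tRNA synthetases none, and 7 higher and 4 lower. Among 7 tRNA m1A writers and erasers none was called with all libraries, and Trmt61a and Trmt10c were lower without that one.

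Other lists held between 0 and 2 calls with all libraries. Pou2af1 was the 1 of 33 effector and exhaustion transcription factors called, Cd27 the 1 of 20 activation and costimulation genes, Gimap8 the 1 of 15 GIMAP and schlafen genes and Cyld and Traf1 the 2 of 18 NF-kB genes, all of them higher, where 3.1 percent of all genes tested were. Without the library labelled cKO replicate 1 the counts were 7 higher and 7 lower for the transcription factors, 2 and 1 for activation, 2 and 1 for GIMAP and schlafen genes and 6 and 1 for NF-kB genes. The shares of all genes tested were then 9.43 percent higher and 8.32 percent lower. None was called of 34 type I interferon genes, 22 genes of the T cell receptor complex and its proximal signalling, 18 genes of MHC class I presentation, 14 AP-1 factors, 17 BCL2 family members, 19 p53 targets or 31 lysosome and autophagy genes. In the type I interferon list 27 fold changes were below and 7 above 0. Its median log2 fold change was -0.392 at 48 h and 0.512 at 0 h. Its summed level was 2187, 2530 and 2687 CPM in the cKO libraries, against 2167, 2982 and 2671 CPM in the WT libraries. Without the library labelled cKO replicate 1 its 48 h median was -0.182. Without that library the type I interferon list had 2 higher, the T cell receptor list 4 higher and 1 lower, the MHC class I list 3 higher, the AP-1 list 1 lower, the BCL2 list 1 higher and 2 lower, the p53 list 2 lower and the lysosome list 2 higher and 1 lower. Among 9 CD4 and regulatory T cell markers Izumo1r was higher and Ctla4 lower, and of 12 CD8 T cell markers Cd5 was higher. No marker of the B cell, NK or erythroid lists was called. S100a8 and S100a9, neutrophil calprotectin genes, were the 2 of 19 S100, galectin and annexin genes and of 21 tested myeloid markers called, both higher and at very low levels. S100a9 had 42, 73 and 51 counts in the cKO libraries, against 0 in each WT library, which makes it at least 18.6-fold higher, with the WT libraries set at a floor of 3 counts each. S100a8 had 20, 34 and 39 counts in cKO, against 0, 1 and 0 in WT. Ngp, another neutrophil granule gene that was named after its values were seen, had 37, 36 and 30 counts against 0, 0 and 0. Their part in other results was not tested.

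The pathway names in the deposited annotation gave 296 sets with at least 15 tested members, and 5229 of the tested genes carried a pathway name. The largest shares called lower were in terpenoid backbone biosynthesis, with 5 of 23 members lower, steroid biosynthesis, with 4 of 19, glycolysis and gluconeogenesis, with 9 of 47, unsaturated fatty acid biosynthesis, with 4 of 23, and the pentose phosphate pathway, with 3 of 23, 2 of which are glycolytic genes. Without the library labelled cKO replicate 1 these counts were 8, 11, 15, 5 and 9. The sets share members, Acat2 and Hmgcs1 among them, which were also the 2 members of butanoate metabolism called lower. The largest shares called higher were in the intestinal immune network for IgA production, with 5 of 34, where the members with the smallest adjusted p were Itga4, Itgb7, Ccr9 and H2-Ob (0.69 ± 0.14), and in lysine degradation, with 7 of 56, where the higher members include the histone methyltransferases Ezh1, Kmt2a and Kmt2d. With length offsets the lysine degradation count was 2. Insulin secretion had 5 of 40 higher, among them the kinases Prkacb (0.36 ± 0.06) and Prkcb (0.44 ± 0.09), and hematopoietic cell lineage 8 of 72, among them Cd7 (1.09 ± 0.18) and Flt3l (0.64 ± 0.11). Without the library labelled cKO replicate 1 the numbers higher were 7 in the IgA network, 11 in lysine degradation, where 5 were lower, 8 in insulin secretion and 14 in hematopoietic cell lineage, where 4 were lower. Of all genes tested 9.43 percent were higher and 8.32 percent lower without that library. The shares higher with all libraries were 14.7, 12.5, 12.5 and 11.1 percent, beside 3.1 percent of all genes tested. Without both libraries of WT replicate 3 the number higher was 0 in each of these sets. The number lower was then 0 in the terpenoid, steroid, glycolysis and pentose phosphate sets and 1 in unsaturated fatty acid biosynthesis. Of all genes tested 0.119 percent were higher and 0.00791 percent lower in that fit. In 27 of the 296 sets no member was called.

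At 0 h, where the library labelled cKO replicate 1 also had Trmt61a at the WT level, 1 gene of 12404, Dclk2, was called between cKO and WT, 0.00806 percent. The test of the difference itself, cKO minus WT at 48 h less cKO minus WT at 0 h, called 13 genes higher and 1 lower, 0.105 and 0.00806 percent. Without the 48 h library labelled cKO replicate 1 it called 522 higher and 445 lower, 4.1 and 3.5 percent, and without the 0 h and the 48 h library of that label 446 and 422. The test treated libraries of the same replicate number at 0 h and 48 h as unpaired. With a replicate block, a term for the replicate number, it called 5 higher and 1 lower. Those 5 were among the 13 called higher without the block. Among the 13 called with all libraries were S1pr1, Klf3, Itga4, Pou2af1 and Kmt2a. None of the cholesterol genes was among them. Dclk2 was named after its values were seen.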

How the data were processed

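Gene counts of 12 RNA-seq libraries were analysed. The table holds whole-number counts per gene as deposited by the authors, with a pathway annotation, and its columns were matched to libraries through the sample descriptions. The submitters' processing notes name fastp 0.20.1, FastQC 0.11.9, HISAT2 2.1.0, SAMtools 1.9, HTSeq 0.11.2 and the mouse build GRCm39. Their settings and the strand setting are not given in the sources used here, so antisense and overlapping genes cannot be told apart, and near-identical copies are uncertain.

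Counts were tested with edgeR 4.0.16 (R 4.3.3) by the quasi-likelihood test, with TMM scaling (factors 0.956 to 1.07), filterByExpr (minimum count 10, total 15) and 1 mean per genotype and time over all 12 libraries (8 residual degrees of freedom). Of 16352 genes, 12404 were tested, and p-values were adjusted by Benjamini-Hochberg over these, with a threshold of 0.05. Alternatives were limma 3.58.1 (voom), DESeq2 1.42.0, other scalings and filters, the 48 h libraries alone, a replicate block, each 48 h library left out, and, chosen after seeing the data, length offsets and the removal of cKO replicate 1 and WT replicate 3. The tests were checked on simulated data.

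The comparison and its 45 gene lists were chosen with earlier results of these data known. Genes are named if they are Trmt61a or Trmt6, among the 15 highest or lowest fold changes called at a mean of at least 5 CPM without overlap, among the 10 smallest adjusted p-values in each direction at that level, a list member, or 1 of up to 4 called members of a named pathway set with the smallest adjusted p. Figures add 0.1 CPM before the log. Some genes are not reported here.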

Additional observations from a re-analysis of the deposited data

Results flagged for a closer look

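In 14 genes the cKO minus WT difference at 48 h differed from that at 0 h (edgeR test of the interaction, adjusted p under 0.05). Among these, the interaction on the log2 scale was 1.30 for Pou2af1, 0.99 for Kmt2a, 0.89 for Gbp8, 0.86 for Zbtb4, 0.85 for Itga4, 0.85 for Zfp831, 0.83 for S1pr1, 0.82 for Tmem71, 0.81 for Klf3, 0.65 for Pag1 and 0.54 for Lrch3, each with cKO relatively higher at 48 h. Galk1, a galactokinase, was at -0.89, from -0.29 ± 0.10 at 48 h, not called (edgeR adjusted p = 0.118), less 0.59 for the 0 h libraries. A530021J07Rik had 21, 15 and 11 counts in cKO at 48 h, against 0, 1 and 1 in WT, so only its adjusted p is given (edgeR, 0.0301). Galk1, Lrch3 and A530021J07Rik were named after their values were seen.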

How the results depend on the processing

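The genes called higher and lower numbered 726 and 368 with DESeq2, 359 and 302 with limma-voom, 496 and 207 with no filter on low counts, 82 and 56 with the 48 h libraries alone, 243 and 114 with length offsets, 708 and 731 without cKO replicate 1 and WT replicate 3, and 999 and 1063 with length offsets and no cKO replicate 1. Leaving out libraries gave between 15 and 1201 genes higher and between 1 and 1110 lower. Of all calls 74.0 percent were higher with all libraries, against 54.3 with voom, 59.4 with the 48 h libraries alone and 53.1 without cKO replicate 1 at 48 h, and 88.7 without WT replicate 3 at 48 h, 93.8 without both of its libraries, 88.9 without cKO replicate 2, 82.8 without cKO replicate 3, 83.4 without WT replicate 1 and 82.4 without WT replicate 2. The interaction was called in 470 genes with DESeq2, 122 with no filter, 4 with length offsets, 718 with length offsets and no cKO replicate 1, 262 without cKO replicate 1 and WT replicate 3, and between 0 and 967 when libraries were left out. Where edgeR called 0, without WT replicate 2, WT replicate 3, cKO replicate 2 or both libraries of WT replicate 3, 2030, 1528, 1424 and 1321 genes had an unadjusted p under 0.05. The Trmt61a log2 fold change was -3.38 with voom (limma adjusted p = 0.0462), -5.19 with length offsets and no cKO replicate 1, -5.28 without cKO replicate 1 and WT replicate 3, and between -5.22 and -0.80 when libraries were left out. Cholesterol synthesis genes called lower numbered 15 with voom, 5 with the 48 h libraries alone, 17 with length offsets and no cKO replicate 1, 18 without cKO replicate 1 and WT replicate 3, and between 0 and 17 when libraries were left out. The log2 fold changes of Cd8a and Trmt6, neither called, changed sign: Cd8a was at -0.030 with length offsets and no cKO replicate 1, -0.041 without cKO replicate 1 and WT replicate 3, and between -0.041 and 0.056 when libraries were left out, and Trmt6 was at 0.0099 with upper-quartile scaling, 0.0083 without cKO replicate 1 and WT replicate 3, and between -0.077 and 0.065 when libraries were left out. The cause of these changes was not tested. The labels do not say whether replicate numbers pair the libraries, and this was not settled here. Same-numbered cKO and WT libraries at 48 h had correlations of deviations of 0.14, 0.108 and -0.024. For same-numbered cKO libraries at 0 h and 48 h these were 0.0521, 0.0628 and 0.0338, each above those of unlike numbers. Trmt61a was at the WT level in both libraries labelled cKO replicate 1, and Uty had 0 counts in both libraries of WT replicate 3. With a replicate block 418 genes were higher and 198 lower, and the interaction was called in 6.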
